A study of Mus musculus with 4 samples.

Results

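The nuclei described here carried transcripts of genes that are used in dividing cells and none of 5 genes of immune cells. They were found among the nuclei of mouse right ventricles (RVs) as the barcodes with at least 3 UMIs (unique molecular identifiers, each counting 1 transcript) summed over Mki67, Top2a, Cenpe, Cenpf, Kif11 and Anln and 0 UMIs over Ptprc, Dock2, Csf1r, Mrc1 and F13a1. Of 53090 barcodes, 48428 had at least 200 genes and under 10% mitochondrial UMIs, 37526 of these had none of the immune transcripts, and 142 met the whole rule. A further 423 nuclei reached 3 UMIs of the 6 genes but carried an immune transcript, so they were left out. The 6 genes chose the nuclei, and their values are therefore given as a description without a test.

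All RVs came from wild-type C57/BL6J mice at postnatal day 21 (P21). At P7 the mice had received either a sham operation or a fistula between the abdominal aorta and the inferior vena cava, which sends arterial blood to the RV and loads it with volume (RVVO). There were 2 sham libraries and 2 RVVO libraries, prepared from nuclei of frozen tissue with the 10x 3′ v3 chemistry, and the sources used here do not say whether a library was made from 1 mouse or from a pool. In the order sham 1, sham 2, RVVO 1 and RVVO 2, which holds for every list of 4 values, the libraries had 15568, 15430, 8700 and 13392 barcodes and 55516713, 51010039, 64739206 and 63422784 UMIs. The selected nuclei numbered 38, 25, 40 and 39. Their median depth was 5208, 6459, 9881.5 and 7109 UMIs, against 2341, 2191, 4444.5 and 3311.5 in the other non-immune nuclei, so in each library the rule had taken deeper nuclei than the rest. Pairs of libraries shared between 28 and 70 barcode sequences.

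The labels used here give no sex, and the transcripts differed by it. Xist, which is transcribed from the inactive X chromosome of females, had 723, 453, 0 and 1 UMIs in the selected nuclei. Ddx3y, a gene of the Y chromosome, had 0, 0, 35 and 36 UMIs. Both sham libraries thus held female and both RVVO libraries held male RNA, so an effect of sex cannot be told apart from that of the surgery.

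A dividing cell first licenses its replication origins and copies its DNA, then condenses its chromosomes, attaches them to the spindle through the kinetochores, and finally cleaves its cytoplasm. Mouse cardiomyocytes (CMs) leave this cycle soon after birth, and many of them copy their DNA or divide their nucleus in that period without dividing the cell, whereas endothelial cells (ECs) and fibroblasts keep the ability to divide. Of the 6 genes, Mki67 encodes the Ki-67 protein that coats mitotic chromosomes, Top2a the topoisomerase that untangles sister DNA, Cenpe and Cenpf proteins of the kinetochore, Kif11 the motor that pushes the spindle poles apart, and Anln the anillin of the contractile ring. In GRCm38 these genes lie at chr7:135689784-135716361, chr11:98992943-99024189, chr3:135212537-135273611, chr1:189640606-189688086, chr19:37376403-37421859 and chr9:22332012-22389188, with Cenpe and Kif11 on the plus strand and the other 4 on the minus strand.

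The results turned on 3 of these genes, Cenpf, Top2a and Mki67, whose promoters are shown because Cenpf behaved unlike Top2a and Mki67 in the selected CMs. The windows are from RefSeq (GRCm38.p6), run from 250 bases before to 50 bases after the start that RefSeq gives, which can lie some bases from the GENCODE start above, and are written 5′ to 3′ on the strand of the gene. Capitals mark TTTGAA, the letters of the cell cycle homology element, and CCAAT, each on either strand (TTCAAA and ATTGG on the reverse). The Cenpf window is chr1:189688037-189688336, that of Top2a chr11:99024140-99024439 and that of Mki67 chr7:135716330-135716629, each on the minus strand.
Cenpf: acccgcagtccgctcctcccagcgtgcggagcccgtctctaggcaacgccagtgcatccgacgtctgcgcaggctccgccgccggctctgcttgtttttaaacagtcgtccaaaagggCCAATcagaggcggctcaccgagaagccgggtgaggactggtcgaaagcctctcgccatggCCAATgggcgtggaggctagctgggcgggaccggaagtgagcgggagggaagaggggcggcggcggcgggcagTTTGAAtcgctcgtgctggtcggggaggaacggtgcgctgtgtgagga
Top2a: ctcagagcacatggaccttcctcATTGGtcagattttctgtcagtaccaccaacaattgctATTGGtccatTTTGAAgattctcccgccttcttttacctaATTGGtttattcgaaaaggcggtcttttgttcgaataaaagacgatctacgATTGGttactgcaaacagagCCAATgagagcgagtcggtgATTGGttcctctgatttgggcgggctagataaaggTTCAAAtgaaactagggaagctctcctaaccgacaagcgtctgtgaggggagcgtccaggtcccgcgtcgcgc
Mki67: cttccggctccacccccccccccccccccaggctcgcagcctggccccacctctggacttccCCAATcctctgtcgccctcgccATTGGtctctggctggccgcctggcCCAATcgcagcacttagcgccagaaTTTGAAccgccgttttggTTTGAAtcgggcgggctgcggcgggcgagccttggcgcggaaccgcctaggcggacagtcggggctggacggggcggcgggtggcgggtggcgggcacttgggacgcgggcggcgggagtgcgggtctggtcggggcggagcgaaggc

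TTTGAA on either strand was found in the windows of 5 of the 6 genes, all but Cenpe, and in 17.9% of 32851 RefSeq windows of the same length. CCAAT was found in 5 of the 6, all but Anln, and in 37.4% of all windows. The 147 other cell cycle genes that are used below as an independent measure fall into replication and mitosis lists. Of 79 windows of mitosis genes, 45 (57.0%) held TTTGAA and 55 (69.6%) held CCAAT, and of 57 windows of replication genes 9 (15.8%) and 31 (54.4%) did. The E2F letters TTTGGCGC, TTTCCCGC, TTTGCCGC or TTTCGCGC, read on both strands, were in none of the 6 windows, in 19 of 57 (33.3%) replication windows, in 10 of 79 (12.7%) mitosis windows and in 2.26% of all windows. The windows of Cenpf, Top2a and Mki67 each held both TTTGAA and CCAAT.

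Each nucleus was placed in a lineage by other genes of the rule. A nucleus was called CM when Ryr2, the calcium release channel of the sarcoplasmic reticulum, made up at least 1% of its UMIs. Otherwise it took the highest of Ptprb plus Flt1 (EC), Pdgfra (fibroblast) and Pdgfrb (mural cell) with at least 2 UMIs, and it stayed unassigned without these or with a tie. This gave 59 CMs, 38 ECs, 5 fibroblasts, 4 mural nuclei and 36 nuclei without a lineage. By library the CMs numbered 9, 12, 26 and 12 and the ECs 17, 5, 6 and 10. Fibroblasts numbered 0, 1, 1 and 3, mural nuclei 1, 0, 1 and 2, and unassigned nuclei 11, 7, 6 and 12.

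The lineages were checked with markers that the rule had not used. The 13 CM markers, among them Ttn of the sarcomere and Pln, which restrains the calcium pump, summed to 607 UMIs per 10000 in the selected CMs and to 641 in the other CMs. The 12 EC markers, among them Cdh5 of the endothelial junctions, summed to 57.6 per 10000 in the selected ECs and to 78.9 in other ECs. The selected ECs also held CM markers, 254, 163, 156 and 315 UMIs per 10000 by library, against 269, 186, 236 and 232 in other ECs. Ryr2, with 1% or more of the UMIs as the rule for CMs, had 4655, 867.9, 645 and 4813 CPM (UMIs of the gene scaled to the same total in every library) in the selected ECs, and so was high in sham 1 and RVVO 2. In those libraries 3 and 4 selected ECs had Ryr2 at 0.5% or more. These 7 nuclei held 41.3% of the UMIs of the selected ECs, 367 per 10000 of the CM markers and 38.4 of the EC markers, 4 of them were marked as doublets and 3 had a high rate of the other cell cycle genes described next. The other 31 held 160 and 71.1 per 10000, and 20 had a high rate.

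To check whether the nuclei were cycling by genes that had not chosen them, the UMIs of 147 other cell cycle genes were summed in each nucleus and divided by its total. This rate, given per 10000 UMIs, covers 60 genes of replication and 87 genes of mitosis. In most of the selected CMs these genes were little raised. The median rate of the 59 was 7.86, beside a median of 7.13 in 9964 other CMs with at least 2000 UMIs. Of 59 selected CMs, 6 had a rate of 60 or more, while the other 53 had a median of 7.30 and did not exceed 29.7. The rate of 60 was chosen after the data had been seen, as a value in the gap between 29.7 and 70.6 in CMs. The 53 CMs below it are called low here and not cycling, which does not say that each of them lacked every other gene of the cycle.

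In ECs the high nuclei were the majority. Of 38 selected ECs, 23 had a rate of 60 or more, with a median of 164, and the other 15 had a median of 8.63. The other ECs with at least 2000 UMIs had a median of 11.7 and a highest value of 91.0. The highest rate below 60 in a selected EC was 58.5 and the lowest above it was 86.5. High rates were also found in 3 of 5 fibroblasts, 2 of 4 mural nuclei and 20 of 36 unassigned nuclei. The 3 high fibroblasts held 88 of the 95 UMIs of the 6 genes found in fibroblasts, and the 2 high mural nuclei 36 of 42. In all, 54 of 142 nuclei were high, 20, 13, 9 and 12 by library, and 88 were low. The median of the high nuclei was 166 and that of the low nuclei 8.33.

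**Figure D1:**
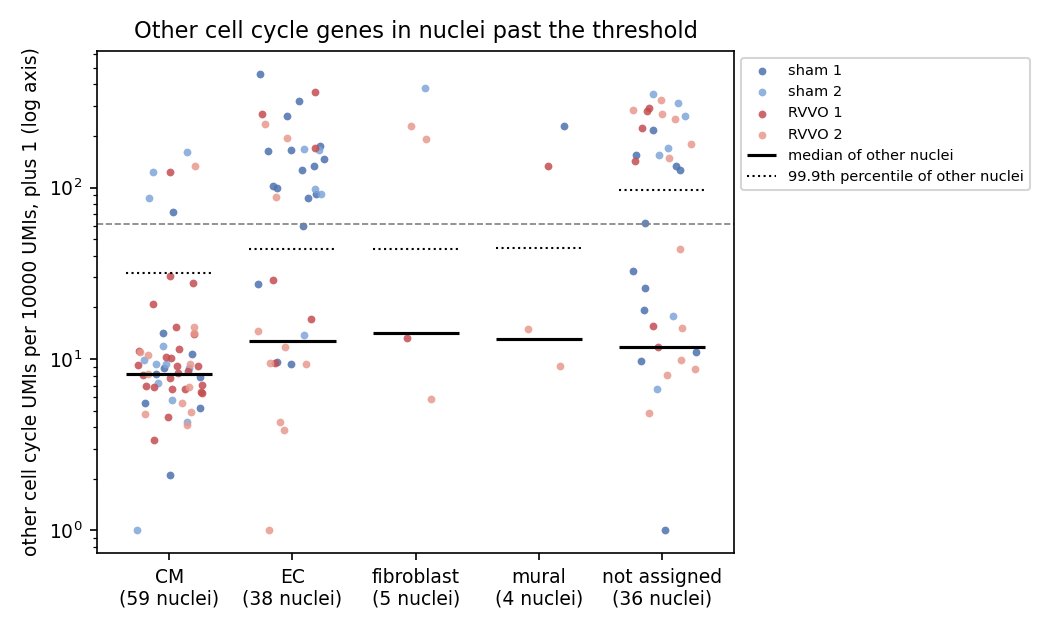
Rate of 147 other cell cycle genes (UMIs per 10000 UMIs plus 1, log axis) in each of the 142 nuclei past the threshold, by lineage and coloured by library; bars give the median and dotted lines the 99.9th percentile of other nuclei of the lineage with at least 2000 UMIs, and the dashed line is the rate of 60. Of 59 CMs, 6 sit above the dashed line, and of 38 ECs, 23 do.

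The reverse case, a high rate below the threshold, was met in 65 non-immune nuclei. Of these 52 were unassigned, 12 were ECs, 1 was a fibroblast and none was a CM or a mural nucleus. By library they numbered 18, 32, 9 and 6, with median depths of 1035, 687.5, 2753 and 2917 UMIs, and 16 of the 65 had at least 2000 UMIs. Of the 423 nuclei left out for an immune UMI, 249 had a high rate, among them 6 of 63 CMs and 85 of 172 ECs. With exactly 1 immune UMI, 0 of 12 CMs and 12 of 16 ECs were high. Among 130 CMs with 2 UMIs of the 6 genes, just outside the threshold, the median rate was 7.29 and 0 were high. Among the 30 CMs with 3 UMIs, just inside it, the median was 7.42 and 0 were high. High CMs were found from 6 UMIs upward, where 6 of 10 nuclei were high. In ECs, 1 of 68 nuclei with 2 UMIs, 1 of 11 with 3 UMIs and 19 of 20 with at least 6 UMIs were high.

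The CMs with low rates reached the threshold mainly through Cenpf. Cenpf gave 167 of their 211 UMIs of the 6 genes (79.1%), and of all 59 selected CMs 35 were there for Cenpf alone. In the 6 high CMs Cenpf gave 3 of 88 UMIs (3.41%), whereas Top2a gave 35.2%, Mki67 20.5%, Kif11 15.9%, Cenpe 13.6% and Anln 11.4%. In the 23 high ECs the order was also led by Top2a, with 32.6%, then Mki67 with 17.8% and Cenpf with 15.6%, and in the 15 low ECs Cenpf gave 41.5% of 53 UMIs. Cenpf was also the more frequent transcript in CMs outside the selection, with 8.05, 5.23, 7.17 and 11.5 CPM, where Mki67 had 1.17, 1.05, 0.512 and 1.58 CPM. This was not particular to CMs. In ECs outside the selection Cenpf had 8.17, 5.12, 7.93 and 9.27 CPM and Mki67 2.20, 2.05, 2.77 and 3.05 CPM. These levels are not scaled for gene length, so they compare numbers of transcripts caught and not the levels of the 2 genes.

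**Figure D2:**
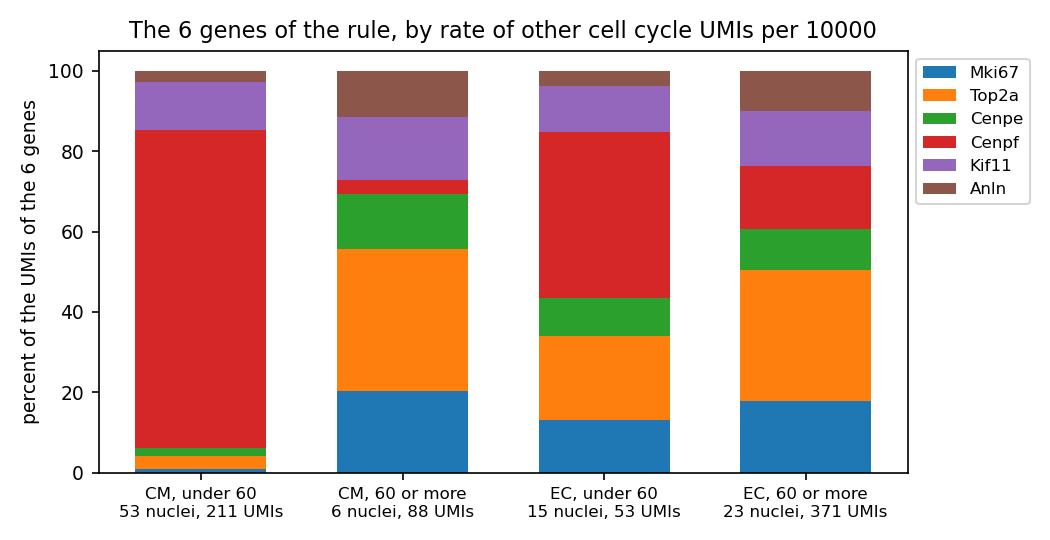
Share of each of the 6 genes (percent, stacked bars) in the UMIs that placed CMs and ECs past the threshold, split by a rate of other cell cycle genes under 60 or of 60 and more. Cenpf fills 79.1% of the bar of low CMs and 3.41% of that of high CMs.

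The number of different genes behind the 3 UMIs followed the same division. Of 59 CMs, 37 had UMIs of a single gene of the 6, and 0 of the 48 CMs with UMIs of 1 or 2 genes were high. All 5 CMs with at least 4 of the genes were high, as were all 39 such nuclei over the lineages.

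The 6 high CMs are described singly, since they are the CMs in which the other cell cycle genes were found. The CM of sham 1 had 17276 UMIs and a rate of 70.6. Sham 2 had 3, with 12082, 19359 and 14906 UMIs and rates of 86.1, 122 and 160. RVVO 1 and RVVO 2 had 1 each, with 28849 and 10271 UMIs and rates of 123 and 132. Ryr2 took between 1.01% and 1.69% of the UMIs of these 6 nuclei, close to the 1% that defines a CM, and the CM markers between 338 and 502 per 10000. Summed over nuclei the CM markers had 443 per 10000 in the 6 high CMs, 629 in the 53 low CMs and 641 in other CMs. The doublet score marked 3 of the 6, the nucleus of sham 1 and the deeper 2 of sham 2, beside 6 of the 53 low CMs and 96 of 590 matched other CMs (16.3%). The nucleus of sham 1 also held 58 UMIs of glial markers, 26 of EC markers and 38 of mural markers. The part of doublets in the high CM rates was not tested, and the high CM nuclei without a doublet mark were 3, 1 each in sham 2, RVVO 1 and RVVO 2.

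Aurkb, the kinase of the chromosomal passenger complex, and Ect2, which activates RhoA at the cleavage furrow, were read separately since the study names them. Aurkb had 18 UMIs in 12 of the 142 nuclei, and all 12 were high. In CMs these were 4 UMIs in 2 of the 6 high nuclei and 0 UMIs in the 53 low ones. By library the selected CMs had 2, 2, 0 and 0 UMIs of Aurkb. Ect2 had 97 UMIs, of which 86 were in high nuclei. High CMs had 19 Ect2 UMIs in 6 of 6 nuclei and low CMs 6 UMIs in 2 of 53 nuclei. In high ECs Aurkb had 4 UMIs in 4 nuclei and Ect2 29 UMIs in 13 of 23.

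The 20 unassigned high nuclei held UMIs of markers of several cell types. All 20 held at least 5 UMIs of CM markers, 1165 UMIs in all or 151 per 10000. Other ECs held 232 per 10000 of the CM markers, so this level does not mark a nucleus as a CM. The other lists were counted in the same 20 nuclei. At least 5 UMIs of fibroblast markers were found in 15 of them, of EC markers in 10, of epicardial markers (among them Wt1 and Upk3b of the outer lining of the heart) in 8, of endocardial markers in 7, of mural markers in 5, of erythroid markers in 3, of immune and of glial markers in 2 each and of lymphatic markers in 1. A nucleus can count in several. The epicardial markers summed to 274 UMIs, 35.6 per 10000, with up to 78 in 1 nucleus. Unassigned nuclei below the threshold held 12.6 per 10000. The 20 also held more endocardial (10.1 against 6.38), lymphatic (2.47 against 1.95) and EC markers (21.05 against 20.1). They held fewer fibroblast (39.9 against 58.9), CM, mural, immune, glial and erythroid markers. These differences were not tested and do not show the kind of a nucleus. The 16 unassigned low nuclei held 355 UMIs per 10000 of CM markers. No lineage was given to these nuclei.

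Depth alone gives a nucleus more chances to reach 3 UMIs. Each selected nucleus was therefore set beside 10 other nuclei of the same library and lineage that lay nearest to it in total UMIs. The mean rate of the selected CMs was 13.9, 35.6, 14.03 and 18.0, and that of their matched nuclei 7.37, 7.21, 7.70 and 7.80. The selected CMs were higher in 4 of 4 libraries, by 12.9 on average, with p = 0.125 in the exact two-sided sign-flip permutation test over libraries, the smallest p that 4 libraries allow. Between the medians the difference in CMs was 0.582, in the same direction in 4 of 4 libraries. Summed over nuclei the rate was 116 in the 6 high CMs and 9.77 in the 53 low CMs, with 7.50 in the nuclei matched to the low ones.

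In ECs the mean rate was 143, 107, 142 and 56.3, against 11.5, 13.9, 12.7 and 11.9 in matched ECs, a difference of 99.3 (exact permutation p = 0.125, higher in 4 of 4 libraries). The medians were 126, 96.5, 98.9 and 9.60 against 10.8, 13.1, 12.8 and 10.8, higher in 3 of 4 libraries (exact permutation p = 0.25). RVVO 2 was the exception, where 3 of 10 selected ECs were high. Summed over nuclei, the low ECs had 10.6 per 10000 and the nuclei matched to them 12.4. The doublet score marked 7 of 38 selected ECs and 95 of 380 matched ECs (25%).

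Replication and mitosis genes were compared to see where in the cycle the nuclei lay. Replication genes made up 39.9% of the cell cycle UMIs of selected CMs, 30.7% of those of ECs and 33.3% of those of all 142 nuclei. The share was 39.9% in high and 39.8% in low CMs, and 30.3% in high and 37.7% in low ECs. Matched CMs held 2370 replication and 4077 mitosis UMIs, and matched ECs 1409 and 2066. The share in CMs was thus alike in high and low nuclei and does not show where in the cycle the CMs lay. In CMs the replication list summed to 581, 1477, 770 and 761 CPM and the mitosis list to 1034, 2191, 1186 and 980 CPM. Sham 2, with 3 of the 6 high CMs, had the highest value on both lists. In ECs the replication list summed to 2787, 3118, 4022 and 2066 CPM and the mitosis list to 6545, 6815, 9572 and 3839 CPM. In CPM the ECs of every library lay above the CMs of every library on both lists. Per 100 UMIs of the 6 genes the lineages overlapped. Replication was then 144, 367, 258 and 208 in CMs and 201, 237, 234 and 263 in ECs. Mitosis was 256, 544, 398 and 268 in CMs and 473, 517, 556 and 488 in ECs. Between RVVO and sham the groups overlapped on all 4, with RVVO minus sham at −264 and −529 CPM in CMs and +91.6 and +25.5 CPM in ECs for replication and mitosis (exact permutation p = 1, 0.667, 1 and 1, each 1 after adjustment over these 4, n = 2 libraries a group, where the smallest p possible is 0.333).

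**Figure D3:**
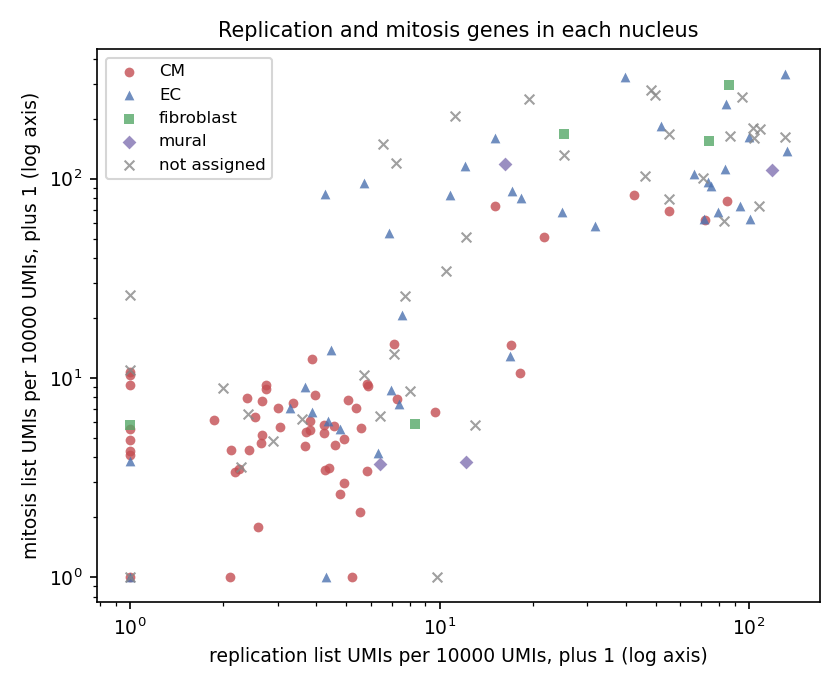
UMIs of the replication lists (x axis) and of the mitosis lists (y axis) per 10000 UMIs, each plus 1 on a log axis, 1 symbol for each of the 142 nuclei and 1 shape for each lineage. Of 59 CMs, 6 lie in the upper right with the high nuclei of the other lineages, and the rest lie in the lower left.

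The selected CMs were then compared gene by gene with matched CMs. Library sums were compared with edgeR's quasi-likelihood test, library as a block and Benjamini-Hochberg adjustment, and 51 of 8466 genes (0.602%) passed an adjusted p of 0.05, 41 higher (0.484% of the genes tested) and 10 lower (0.118%). The 16 genes of the rule were left out of the test. Of the 41 genes that were higher, 18 belonged to the cell cycle lists. Because most low genes passed the filter through the nuclei in which they are high, the number that passed on each list is a part of the list and its median is a description.

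Diaph3, a formin that builds actin filaments at the cleavage furrow (chr14:86655367-87141235, minus strand), had 40.4, 166, 74.6 and 58.5 CPM in the selected CMs and 1.61, 1.07, 2.19 and 2.20 CPM in matched CMs. The groups did not overlap, and the difference was 5.40 ± 0.47 on the log2 scale (SE, edgeR adjusted p = 4.37e-08). It rested on few nuclei, with 66 of 75 UMIs in the 6 high CMs and the other 9 in 1 low CM. Casc5, the kinetochore scaffold also known as Knl1, had 40.4, 69.8, 36.1 and 7.31 CPM against 0, 1.07, 1.22 and 0.734 CPM, a log2 difference of 5.25 ± 0.73 (edgeR adjusted p = 0.000232). Of its UMIs 26 were in the 6 high CMs and 8 in 1 low CM. Ect2 differed by 4.39 ± 0.78 (edgeR adjusted p = 0.00397), with 8.07, 69.8, 21.7 and 14.6 CPM in the selected CMs.

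On the list of cytokinesis 5 of 12 genes were tested, and Diaph3 and Ect2 were higher (median log2 difference 2.74, against −0.01 over all genes tested). On the kinetochore list 5 of 20 were tested and Casc5 and Cenpp were higher (median 1.48). Cenpp had 64.6, 183, 173 and 278 CPM against 55.6, 53.1, 57.7 and 80.011 CPM, a log2 difference of 1.48 ± 0.21 (edgeR adjusted p = 0.000276). Its UMIs were shared more evenly, with 85 in the 6 high CMs and 67 in 19 low CMs. Of 23 genes for spindle motors and microtubule factors 6 were tested, and Cep192 of the centrosome, Ckap2l and the motor Kif15 were higher (median 2.76). Smc4, a core subunit of condensin, was the gene called among 7 tested of 12 for chromosome structure, at 1.39 ± 0.34 (edgeR adjusted p = 0.0496), and it passed in 4 of the 14 settings tested. Cep192 passed in 5 of 13. Of the 4 genes of the chromosomal passenger complex 2 were tested and none was called. Aurkb was too rare to be tested.

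Replication genes were called on each of their 3 lists. On the list of origin licensing and the replication fork 10 of 32 genes were tested, and Pola1 and Prim2, subunits of the polymerase-primase that starts DNA strands, were higher (median 1.72). Prim2 passed in 6 of the 14 settings tested. Pola1 had 145, 145, 96.2 and 117 CPM against 51.6, 44.5, 50.2 and 53.6 CPM, without overlap, a log2 difference of 1.25 ± 0.22 (edgeR adjusted p = 0.00364). Its UMIs fell almost evenly on 5 high CMs (48) and 21 low CMs (53). For nucleotide supply and chromatin assembly 5 of 14 genes were tested, and Atad2 and Hells, 2 ATPases of chromatin, were higher (median 1.95). For DNA repair at the fork 9 of 14 were tested, and Brca1, Brip1, Neil3 and Rad51b were higher (median 2.07). Of the cyclins and kinases of the cycle, Ccne2, which drives entry into S phase, was called among 4 tested of 20. Of the transcription factors, E2f7, a repressor of E2F targets, was called among 4 tested of 9.

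The genes that hold cells in or out of the cycle did not pass the test. None of 4 tested G1 cyclins and kinases (median 0.08), none of 6 tested CDK inhibitors and pocket proteins (median 0.29), none of 5 tested fetal and stress genes and none of 5 tested maturation genes of CMs was called. No gene of the lists of CM, EC, fibroblast, mural, immune, epicardial, glial, endocardial, lymphatic and erythroid markers was called either. The EC markers had a median of 0.30 over 12 tested genes and the CM markers a median of −0.12 over 13.

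Outside the lists, Lockd, a long noncoding RNA that lies beside Cdkn1b, had 26 UMIs in the 6 high CMs and 3 in 2 low CMs and differed by 5.03 ± 0.77 (edgeR adjusted p = 0.000638). Kntc1 of the kinetochore checkpoint and Zgrf1, a DNA helicase, were also higher, by 4.66 ± 0.99 and 2.60 ± 0.61. Etv1, an ETS factor known from conduction tissue, moved with the low nuclei instead. It had 88.8, 75.2, 48.1 and 36.6 CPM against 21.7, 6.43, 24.1 and 11.0 CPM (1.89 ± 0.38, edgeR adjusted p = 0.0117), with 3 UMIs in high CMs and 47 in 18 low CMs. Elf4, another ETS factor, differed by 1.90 ± 0.40 (edgeR adjusted p = 0.0179). Among the genes that were lower, Cp (ceruloplasmin) had 56.5, 32.2, 52.9 and 73.1 CPM against 112, 106, 105 and 106 CPM (−1.06 ± 0.24, edgeR adjusted p = 0.029), and Lrtm1 differed by −0.73 ± 0.17. Both passed in 7 of the 14 settings tested. Adap2 had 0 UMIs in the selected CMs and 196 in 66 of 590 matched CMs (edgeR adjusted p = 0.00558). Fgf12 likewise had 0 UMIs against 153, which lay in 16 matched CMs (edgeR adjusted p = 0.0205).

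The number of calls in CMs was not stable. It fell to 25 without doublet-marked nuclei, to 10 without sham 2, to 14 without RVVO 1 and to 6 without RVVO 2, and to 4 without the library block. Diaph3, Casc5 and Lockd passed under every setting in which they could be tested.

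In the main fit the selected ECs differed from matched ECs in more genes than was the case in CMs, although fewer could be tested. The order turned without sham 1, with 72 genes called in CMs and 43 in ECs. It also turned without barcodes with markers of more than 1 lineage, with 73 in CMs and 50 in ECs. Of 6043 genes, 122 (2.02%) passed an edgeR adjusted p of 0.05, 109 higher (1.8% of the genes tested) and 13 lower (0.215%). Of the 109, 62 belonged to the cell cycle lists. As in CMs, a low gene was mostly tested because of the selected nuclei in which it is high. All 11 tested of 20 kinetochore genes were higher (median log2 difference 5.07, against −0.04 over all genes tested), as were 14 of 16 tested of 23 spindle genes (median 5.95), 7 of 8 tested of 12 cytokinesis genes (median 5.46), 7 of 8 tested of 12 genes of chromosome structure (median 2.85) and 2 of 3 tested genes of the chromosomal passenger complex, Birc5 and Cdca8.

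Diaph3 had 579, 450, 667 and 227 CPM in the selected ECs and 3.64, 3.24, 10.8 and 11.985 CPM in matched ECs, a log2 difference of 5.91 ± 0.42 (edgeR adjusted p = 1.7e-08). Prc1, which bundles the microtubules of the central spindle, had 136, 225, 452 and 133 CPM against 2.18, 0, 0 and 2.66 CPM (6.54 ± 0.59, edgeR adjusted p = 3.09e-07). Casc5 differed by 7.23 ± 0.62, Kif15 by 6.90 ± 0.62, Kif4 by 6.16 ± 0.63 and Nusap1 by 5.25 ± 0.62. In each of these genes the lowest selected sum lay above the highest matched sum. Ect2 had 96.5, 161, 151 and 39.995 CPM and differed by 6.11 ± 0.83 (edgeR adjusted p = 7.98e-05). RVVO 2, with the fewest high ECs for its number of nuclei, had the lowest value of the 4 libraries for Diaph3, Casc5, Nusap1, Prc1 and Ect2. For Kif15 and Kif4 sham 2 was the lowest.

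Of the replication lists, some of the genes tested were higher. On the list of origin licensing and the fork 4 of 9 tested genes were higher (median 1.71), on that of nucleotide supply 4 of 7 (median 2.17), and on that of repair 7 of 10 (median 3.93). Pola1 had 295, 418, 430 and 200 CPM against 66.9, 29.2, 113 and 53.3 CPM (2.22 ± 0.31, edgeR adjusted p = 9.79e-05). Rrm1, a subunit of ribonucleotide reductase, had 56.8, 129, 21.5 and 93.3 CPM (2.57 ± 0.60, edgeR adjusted p = 0.0207). Neil3, a glycosylase that unhooks crosslinked DNA, had 28, 8, 9 and 8 UMIs in the selected ECs and 0 in all matched ECs (edgeR adjusted p = 1.68e-06). Esco2, which acetylates cohesin during replication, had 14, 5, 7 and 8 UMIs and also 0 in matched ECs (edgeR adjusted p = 2.78e-05). Cyclins and kinases had 4 of 7 tested genes higher, among them Ccnf and Mastl, and the transcription factors 2 of 4, E2f7 and Lin9, which passed in 5 and 8 of the 13 settings tested. None of 4 tested G1 cyclins and kinases and none of 7 tested CDK inhibitors and pocket proteins was called.

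Markers of cell types also moved in ECs. Prox1 and Mmrn1, genes of lymphatic ECs, were higher among 5 tested of 7 lymphatic markers. Prox1 had 114, 32.1, 688 and 213 CPM against 31.3, 45.4, 97.5 and 71.9 CPM (1.84 ± 0.36, edgeR adjusted p = 0.00409), and sham 2 lay below its matched sum. Mmrn1 had 5.68, 0, 323 and 213 CPM against 8.0008, 19.5, 17.3 and 1.33 CPM (3.18 ± 0.81, edgeR adjusted p = 0.0392), lay above its matched sum in the RVVO libraries alone and passed in 6 of the 11 settings tested. The lymphatic markers together summed to 165, 32.1, 1957 and 747 CPM against 96.7, 217, 236 and 119 CPM, high in both RVVO libraries, and the part of lymphatic nuclei in the EC results was not tested. Of 9 tested mural markers Rgs5 was lower (−1.42 ± 0.32, edgeR adjusted p = 0.016, a call that held in 7 of 15 settings), with a median of −0.73 over the 9. Pcdh9 was lower among 11 tested fibroblast markers (median −0.63) and Il1rapl1 among 4 tested epicardial markers (median −0.77). None of 12 EC markers, 13 CM markers, 5 immune, 4 glial, 4 endocardial or 4 erythroid markers tested was called.

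Outside the lists, the genes with the largest rise were Depdc1a, Spag5, Kntc1, Shcbp1 and Efcab11. Depdc1a had 11, 2, 6 and 3 UMIs in the selected ECs and 0 in matched ECs (edgeR adjusted p = 0.000461). Zfp804b, Fmo2, Pcsk5 and Eln were among those with the largest fall. Zfp804b had 0 UMIs against 72, 35, 29 and 13 in matched ECs. Eln, which encodes elastin, had 142, 64.3, 194 and 187 CPM against 304, 302, 360 and 346 CPM (−1.16 ± 0.28, edgeR adjusted p = 0.0238). Eln passed in 5 of the 15 settings tested and Pcsk5 in 6 of 13. The number of genes called in ECs was 43 without sham 1, which held 17 of the 38 nuclei, 64 without RVVO 1, 70 without doublet-marked nuclei and 46 without the library block. Without the ECs with Ryr2 at 0.5% or more it was 99, with 79 higher and 20 lower. Casc5, Cenpp, Diaph3, Kif23, Neil3, Pola1, Prc1, Rad51b and Smc4 were called under each of the 15 settings tested.

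**Figure D4:**
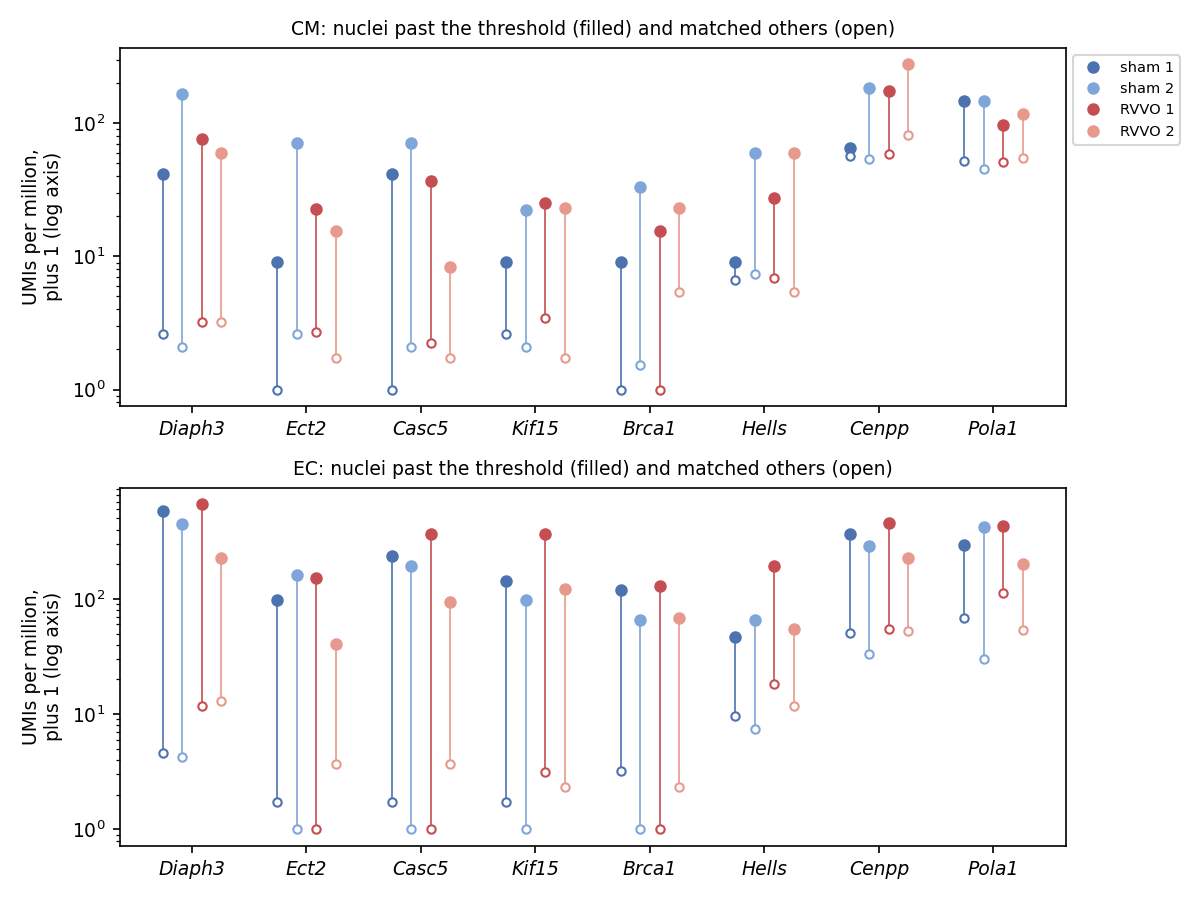
CPM plus 1 (log axis) of 8 cell cycle genes in nuclei past the threshold (filled) and in matched other nuclei (open), joined by library, for CMs (upper panel) and ECs (lower panel). All filled points lie above the open point of their library, and the distance for Diaph3 is 5.40 in CMs and 5.91 in ECs on the log2 scale of the fit.

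When the CMs, ECs, fibroblasts and mural nuclei past the threshold were pooled, rarer genes could be tested. Of 10891 genes 264 were called (2.42%), 215 higher (1.97%) and 49 lower (0.45%), in the same edgeR test against matched nuclei. All 14 genes of repair at the fork were higher (median log2 difference 3.41), among them Brca2 of homologous recombination and Fancd2 of the Fanconi pathway. Of the fork genes 10 of 21 tested were higher, among them Mcm6 of the replicative helicase, and of the genes for nucleotide supply and chromatin 8 of 12, among them Rrm2 and Uhrf1. For the kinetochore 14 of 15 tested genes were higher, for the spindle 18 of 20, for chromosome structure 8 of 10, for cytokinesis 9 of 11 and for the passenger complex 3 of 3, Birc5, Cdca8 and Incenp. Of the transcription factors 6 of 7 tested were higher: E2f2, E2f3, E2f7 and E2f8 of the E2F family, and Lin9 and Lin54 of the MuvB complex. E2f3 and Lin54 each passed in 7 of the 13 settings tested, and Mcm6 in 8 of 12. Diaph3 had 354, 277, 147 and 142 CPM against 2.63, 1.34, 3.19 and 5.59 CPM (5.99 ± 0.30). Again none of 5 G1 cyclins and kinases and none of 9 tested CDK inhibitors and pocket proteins was called. Of 11 tested fibroblast markers Abca8a, Dcn and Pcdh9 were lower, in 6, 3 and 11 of the 13 settings tested.

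The 41 genes higher in CMs and the 109 higher in ECs shared 22, which is 53.7% of the CM genes and 20.2% of the EC genes. The same libraries gave both sets, but no nucleus is in both. Set directly against the selected ECs in a fit with library as a block, the selected CMs were lower in 7 of 9 tested replication genes and 23 of 32 tested mitosis genes and higher in none (median log2 differences −1.77 and −2.53, edgeR). In that fit 29% of 3894 genes were called, 15% higher and 14% lower, and these include the genes of the lineages themselves. The balance rested on the scaling. With library size alone 405 genes were higher and 985 lower, and scaled to the 6 genes of the rule 2118 were higher and 56 lower. On that last scale 1 of 9 replication genes and 8 of 32 mitosis genes were lower and none higher, with medians of −0.49 and −1.04. The replication genes called lower numbered 2 of 6, 2 of 8 and 2 of 9 tested without sham 1, RVVO 1 and RVVO 2, and 3 of 9 in DESeq2, while mitosis genes numbered 16 of 21, 14 of 25, 20 of 33 and 22 of 32. Without the ECs with Ryr2 at 0.5% or more 8 of 9 and 23 of 32 were lower. A low gene passed the filter through the lineage in which it is high, and these were 9 of 60 and 32 of 87 genes. With no filter on low counts 3 of 60 replication genes and 29 of 87 mitosis genes were lower and none higher, with medians of −1.21 and −1.95. Of all 15286 genes in that unfiltered fit, 478 were lower and 581 higher, so the share of replication genes lay near that of all genes.

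The question of the design, whether volume overload changes the share of such nuclei, was asked per library. The nuclei past the threshold made up 0.282% ± 0.106 (SD, n = 2) of non-immune nuclei in sham and 0.559% ± 0.179 in RVVO, a difference of 0.277 percentage points (exact permutation p = 0.333, the smallest that 2 against 2 libraries allow). In CMs the shares were 0.372%, 0.422%, 1.15% and 0.360%, with Wilson 95% intervals of 0.196 to 0.705, 0.242 to 0.736, 0.784 to 1.68 and 0.206 to 0.629. RVVO 1 stood above the other 3 libraries, which lay within each other's intervals, and RVVO 2 was the lowest. The order of RVVO 2 differed between settings. With Ryr2 at 0.5% or more the shares were 0.379%, 0.369%, 1.07% and 0.515%, with 2% or more (13 nuclei) 0.341%, 0.271%, 0.719% and 0.426%, with 2 UMIs as the threshold 1.28%, 1.30%, 2.69% and 1.80%, and without mixed barcodes 0.295%, 0.365%, 1.18% and 0.369%, each without overlap and higher in RVVO (exact permutation p = 0.333). The groups overlapped in the other 4 settings. With 4 UMIs as the threshold the shares were 0.207%, 0.176%, 0.618% and 0.150%, with up to 1 immune UMI 0.409%, 0.406%, 1.13% and 0.378%, without doublets 0.290%, 0.365%, 1.23% and 0.330%, and with the minimum of genes raised to 500 and the mitochondrial limit lowered to 5% they were 0.382%, 0.437%, 1.16% and 0.367%. RVVO 1 was the highest in all 8. The difference in CMs of 0.357 points (exact permutation p = 1) became −0.0366 without RVVO 1. In ECs the shares were 0.413%, 0.120%, 0.330% and 0.444%, and the groups overlapped (difference 0.121 points, exact permutation p = 0.667). The EC groups did not overlap, with RVVO higher, at 2 UMIs (0.923%, 0.528%, 0.990% and 1.24%), with up to 1 immune UMI (0.430%, 0.129%, 0.620% and 0.517%), with Ryr2 at 2% for CMs (0.430%, 0.159%, 0.470% and 0.440%) and without mixed barcodes (0.318%, 0.0770%, 0.319% and 0.451%), each at an exact permutation p = 0.333, and at 4 UMIs the difference was −0.0312 points. These are shares without thinning. Intervals cover counting error only. In sham 1, 0 of 381 fibroblasts were past the threshold, and the limit that a count of 0 allows, set at 3 counts of 381, is a share of 0.787%.

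These shares rise with depth, and RVVO 1 was the deepest library. Each nucleus was therefore thinned to 2000 UMIs, and the share expected to hold 3 UMIs of the 6 genes was taken, leaving out 4506, 5498, 798 and 1327 shallower nuclei. In CMs this share was 0.0390%, 0.0443%, 0.0441% and 0.0136%, a difference between RVVO and sham of −0.0128 points (exact permutation p = 0.667). These values rest on 0.821, 1.10, 0.982 and 0.435 expected nuclei. At 4000 UMIs they were 0.161%, 0.142%, 0.254% and 0.112%, with RVVO 1 the highest and RVVO 2 again the lowest (difference 0.0312 points, exact permutation p = 1). At 1000 UMIs the CM means were 0.0219% in sham and 0.00450% in RVVO, without overlap (difference −0.0174 points, exact permutation p = 0.333). In ECs the share at 2000 UMIs was 0.432%, 0.0725%, 0.182% and 0.127%, a difference of −0.0976 points (exact permutation p = 1), with sham 1 the highest and sham 2 the lowest. Over all lineages the difference was −0.0307 points. At 2000 UMIs CMs had a lower share than ECs in 4 of 4 libraries, 0.0352% against 0.203% on average (exact sign-flip permutation p = 0.125, 0.375 adjusted over 3 pairs of lineages). This difference was −0.168 points, and −0.0931 points without sham 1. At 1000 UMIs CMs were lower in 3 of 4 libraries, 0.0132% against 0.0784% on average (exact sign-flip permutation p = 0.25). Without thinning CMs had the higher mean share, by 0.249 points, but lay below ECs in 2 of 4 libraries, sham 1 and RVVO 2 (exact sign-flip permutation p = 0.5), and without RVVO 1 the difference was 0.0591 points.

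High nuclei were also counted alone. Nuclei past the threshold with a rate of 60 or more made up 0.188%, 0.108%, 0.154% and 0.133% of non-immune nuclei, a difference of −0.00425 points (exact permutation p = 1). In CMs they made up 0.0413%, 0.106%, 0.0441% and 0.0300% (difference −0.0364 points, exact permutation p = 0.667), from 1, 3, 1 and 1 nuclei, and in ECs 0.316%, 0.0960%, 0.165% and 0.133% (difference −0.0566 points, exact permutation p = 1). Among unassigned nuclei, which hold 20 of the 54, they made up 0.149%, 0.128%, 0.436% and 0.251%, without overlap and higher in RVVO by 0.205 points (exact permutation p = 0.333, the smallest possible). With the unassigned high nuclei below the threshold included these shares were 0.538%, 0.843%, 1.09% and 0.460%, and the groups overlapped (difference 0.0842 points, exact permutation p = 1). Among unassigned nuclei with at least 2000 UMIs they were 0.514%, 0.346%, 1.37% and 0.549%, again without overlap and higher in RVVO (difference 0.529 points, exact permutation p = 0.333). Among CMs with at least 2000 UMIs, where no high nucleus lay below the threshold, the shares were 0.0475%, 0.120%, 0.0449% and 0.0312%, without overlap and lower in RVVO (difference −0.0459 points, exact permutation p = 0.333). When the 65 high nuclei below the threshold were added, the shares of all non-immune nuclei were 0.357%, 0.374%, 0.309% and 0.200%, without overlap and lower in RVVO (difference −0.111 points, exact permutation p = 0.333). Among nuclei with at least 2000 UMIs these shares were 0.326%, 0.168%, 0.298% and 0.221%, and the groups overlapped (difference 0.0125 points, exact permutation p = 1). The exact permutation test cannot pass 0.05 with 2 against 2 libraries. In the edgeR quasi-likelihood test on numbers of nuclei, with the nuclei of each lineage as offset, the log2 differences were 0.88 ± 0.94 in CMs and 0.54 ± 0.97 in ECs (adjusted p = 0.486 and 0.587), and those of fibroblasts, mural and unassigned nuclei did not pass either.

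**Figure D5:**
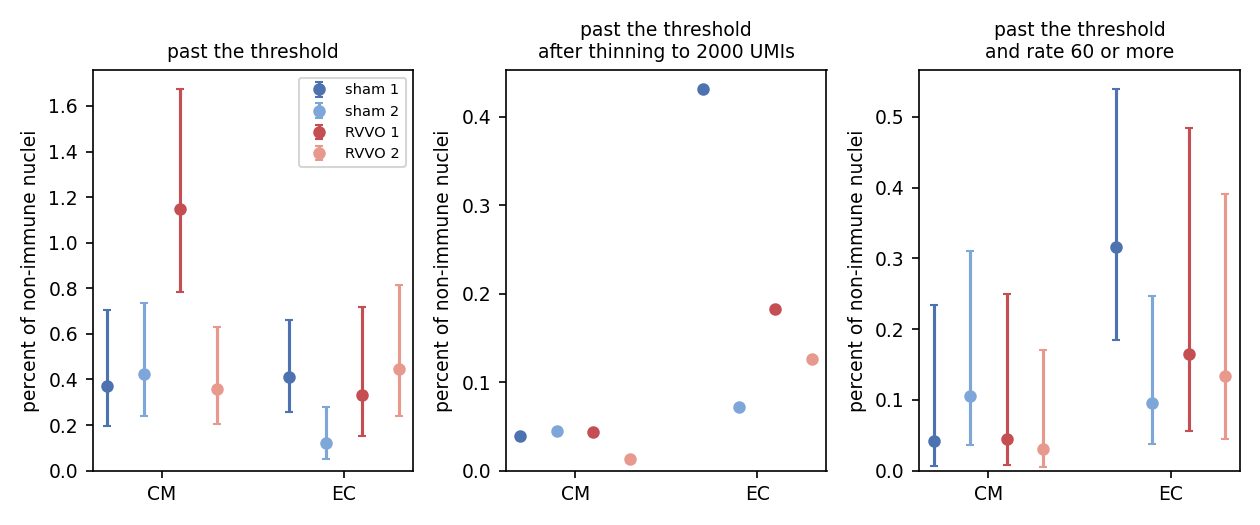
Percent of non-immune CMs and ECs in each library that were past the threshold (left, with Wilson 95% intervals), past it after thinning to 2000 UMIs (middle, expected values) and past it with a rate of 60 or more (right, with Wilson 95% intervals). In CMs, RVVO 1 stands at 1.15% on the left, above the other libraries, and at 0.0441% in the middle, where the values rest on about 1 expected nucleus or fewer a library.

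Between RVVO and sham, the genes that passed in the selected CMs were sex genes. Of 2973 genes tested, 4 were called (0.135%) in the edgeR quasi-likelihood test, Xist and Tsix lower (0.0673%) and Uty and Eif2s3y higher (0.0673%) in RVVO. Xist had 230, 299, 0 and 1 UMIs and Uty 0, 0, 147 and 58 UMIs. Without adjustment 156 genes had a p under 0.05, and DESeq2 called 3. In ECs 1 of 1548 genes was called (0.0646%), Xist with 447, 87, 0 and 0 UMIs (edgeR adjusted p = 0.0468), with 76 genes at an unadjusted p under 0.05 and 1 called by DESeq2. Of the 147 other cell cycle genes 8 could be tested in CMs and 15 in ECs, and none was called. On simulated data the fit in CMs found 51% of genes with a log2 change of 2 and 6% at a change of 1. That in ECs found 57% and 8%. The calls depended on pairing: in CMs they numbered 1 with a replicate block. In ECs they numbered 0 with the block, where Xist had an edgeR adjusted p of 0.467. Without 1 library, a group holds 1 library and the spread comes from the other group alone. The numbers of calls from such fits are therefore not read as results, and only their range is listed at the end of the text. Without the ECs with Ryr2 at 0.5% or more the calls in ECs numbered 6, Xist among them.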

How the data were processed

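The authors deposited UMI counts as whole numbers, without scaling, in matrices whose headers name Cell Ranger 5.0.0; the submitters' processing notes list Cell Ranger 3.0.1, STAR, Seurat 3.0.2 and GRCm38/mm10. The use of introns and strand was not stated in any source read. Positions of 27645 of 27998 genes (98.7%) came from GENCODE M21. The members and gene lists were chosen with earlier results of these data known.

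Counts were summed per library over nuclei and tested in edgeR 4.0.16 (TMM, filterByExpr, quasi-likelihood test, Benjamini-Hochberg) under R 4.3.3, with DESeq2 1.42.0 as an alternative. A minimum of 10 selected nuclei in every library had been planned for such fits. No lineage met it, so a minimum of 5 and the 10 matched nuclei were used, both chosen after the data were seen. Doublets were scored with Scrublet's method in scanpy 1.11.5, marking the highest scores at 0.8% per 1000 barcodes (5885 barcodes). Other steps used Python 3.11.15, numpy 2.4.6, scipy 1.17.1, pandas 2.3.3 and matplotlib 3.10.9. Libraries were the replicates, and p-values measure the spread between these libraries, which may be technical. On simulated data the comparison of CMs with matched CMs (8466 genes) found 66% of genes with a log2 change of 2. At a log2 change of 1 it found 10%, and 3.80% of its calls were false. That of ECs (6043 genes) found 62% and 10% with 0% false. The simulated sums had the same dispersion for every gene, no library effect and no differences between nuclei. These values are therefore not error rates for the measured data.

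Named genes were, on each list, up to 4 with the highest mean CPM in the selected nuclei, with Aurkb and Ect2, and outside the lists at most 5 called in each direction, by size of change and without overlap of the sums. Other genes named beside the count of calls on their list, such as Ckap2l and Neil3 in CMs and most of those of the pooled lineages, were chosen after their values had been seen. Alternatives that changed a result are given below. Thinning to 1000 UMIs and a rate of 40 were also tried. Some genes that the rule names are not reported here.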

Additional observations from a re-analysis of the deposited data

How the results depend on the processing

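No called gene that the text names reversed its direction under the settings in which it could be tested. In CMs against matched CMs, 213 gene and setting pairs kept their side of the threshold and 102 lost it, in ECs 807 and 107, and with the lineages pooled 1204 and 107. The difference in share between RVVO and sham (percentage points) after thinning to 2000 UMIs was 0.277 over all lineages without thinning and 0.0749 with a minimum of 2 UMIs. In CMs it was 0.0312 at 4000 UMIs, 0.357 without thinning, 0.0708 with 2 UMIs and 0.00447 without doublets. In ECs it was 0.121 without thinning and 0.000214 with 2 UMIs, and the unthinned EC share with 4 UMIs was −0.0312. The share of high nuclei over all lineages was 0.00516 at a rate of 80, 0.0196 without doublets, 0.0412 with up to 1 immune UMI and 0.0125 with nuclei below the threshold included at 2000 UMIs or more. It was 0.0208 in CMs without doublets and 0.0913 in ECs with up to 1 immune UMI. Without thinning the mean over libraries in CMs lay above that in ECs, fibroblasts and mural nuclei by 0.249, 0.394 and 0.232 points, with CMs lower in 2, 1 and 1 of 4 libraries, and by 0.0591, 0.205 and 0.0398 points without RVVO 1. The cause of these changes was not tested.

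The number of genes called in CMs against matched CMs was 116 without a filter on low counts, 4 without the library block, 25 without doublets, 6 with 1 matched nucleus and 415 against all other CMs. In ECs it was 220, 46, 70, 16 and 501 under the same settings and 50 without mixed barcodes. With the lineages pooled, 264 genes were called, 120 without the block and 84 with 1 matched nucleus. For RVVO against sham, 26 genes in CMs and 20 in ECs were called without a filter, 23 in ECs without doublets and 6 in ECs without those with Ryr2 at 0.5% or more. In CMs against ECs 2174 were called when scaled to the 6 genes, 2118 higher and 56 lower. The rate of 60, the matched nuclei, the pooled fit, the crossed numbers and the fits without ECs with Ryr2 at 0.5% or more were chosen after seeing the data.

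The deviations of same-numbered libraries correlated at −0.0452 across genes in CMs and −0.307 in ECs. These values cannot settle whether libraries of the same number were prepared together. With a replicate block for the library numbers 1 gene was called in CMs and 0 in ECs for RVVO against sham. With crossed pairing 13 were called in CMs and 1 in ECs. The log2 difference in the number of nuclei with the replicate block was 0.71 in CMs and 0.71 in ECs.

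Leaving out each library in turn gave differences in share from 0.150 to 0.404 over all lineages, −0.0366 to 0.750 in CMs and −0.0256 to 0.267 in ECs. After thinning they ran from −0.106 to 0.0449, −0.0281 to 0.00246 and −0.277 to 0.0820, and for high nuclei from −0.0443 to 0.0358, −0.0685 to −0.00425 and −0.166 to 0.0532. The log2 difference in number ran from −0.14 to 1.52 in CMs and −0.082 to 1.66 in ECs. Replication CPM ran from −711 to 184 and mitosis from −1108 to 49.6 in CMs, and from −886 to 1070 and −2840 to 2892 in ECs. Genes called ran from 6 to 72 in CMs, 43 to 117 in ECs, 145 to 263 pooled and 761 to 977 for CMs against ECs, and for RVVO against sham from 1 to 25 in CMs and 5 to 30 in ECs. For RVVO against sham, leaving out a library leaves 1 library in its group. The spread then comes from the other group alone, so these numbers of calls are not read as results. With no library left out, the values rest on 2 libraries a group, 59 CMs and 38 ECs.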
